A study of Bos taurus with 44 samples.

Results

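RAB proteins are small GTPases that mark the membranes of a cell. Bound to GTP, each sits on its own compartment (endoplasmic reticulum, Golgi, endosomes, lysosomes or secretory vesicles) and recruits the tethers, motors and fusion proteins that move and dock vesicles there. Exchange factors load them with GTP, GTPase-activating proteins switch them off, and GDI carries the inactive form through the cytosol. The lining of the uterus is a secretory tissue, and its glands feed the conceptus before the placenta attaches.

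The set described here holds every gene whose annotated symbol begins with RAB and a digit, 41 of the 8073 gene symbols on the array. Of these, 37 are RAB GTPases, and 4 are proteins named after a RAB: RAB3IP (Rabin8, an exchange factor for RAB8), RAB3GAP2 (a subunit of an enzyme that acts on RAB3 and RAB18), RAB11FIP5 (a RAB11 effector) and RAB5IF (a membrane protein named for an interaction with RAB5). The gene table used for names lists 69 such genes in cattle, so part of the family is not analysed here. Each gene was represented by 1 probe, and no RAB probe lacked a value on any of the 44 arrays. RAB8B and RAB11B have a second probe, which passed the threshold in none of the 7 comparisons.

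The arrays set cattle RNA of 2 groups against each other, 1 in each dye. The groups are SCNT (somatic cell nuclear transfer, cloning from a body cell), IVF-ET (in vitro fertilisation followed by embryo transfer), AI (artificial insemination) and CJ, for which the labels give the word cycle. AI animals carry the name IAJ in the arrays with SCNT and CJ and the name IAT in those with IVF-ET, and the labels do not link these names. Each sample is labelled caruncular or intercaruncular. In cattle the caruncles are raised knobs of the uterine lining where the placenta takes hold, and the intercaruncular lining, rich in glands, surrounds them. Breed, age and day of sampling are not given in the labels, so the groups can be set apart only by these names.

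Intercaruncular RNA of 5 SCNT animals and of 4 AI animals was each set against that of 5 CJ animals on 10 arrays. Caruncular RNA of SCNT and AI was compared on 4 arrays of 2 pairs of pools, whose number of animals the labels do not give. For IVF-ET against AI there were 10 arrays per area, each area with 5 animals per group. The 5 IVF-ET animals were the same in both areas, but of 7 AI animals only 3 were in both. The test of the difference between areas took the 2 areas of an animal as separate samples. Values are log2 ratios of the dyes, deposited without spot brightness, so a level is always relative to other animals, and neither the presence of the tissue's own markers nor a gene at 0 can be read from them. The labels do not say which dye is on top of the ratio. The likely order is Cy5 over Cy3: with it, ISG15, MX1 and RSAD2, which interferon induces, lie higher and the oxytocin receptor OXTR lower in SCNT and AI than in CJ animals, which is how ruminant uterine tissue is known to respond to an early conceptus. How these genes moved is therefore no finding here, and under the other order every sign below turns round.

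Some animals stood apart from their groups. In IAJ 3, an AI animal on 4 arrays, the mean level of 5 interferon-stimulated genes was -0.29 log2 relative to the mean of the CJ animals. It was 3.96 to 4.47 in SCNT animals, 4.37, 5.10 and 4.08 in the other AI animals and -0.28 to 0.18 in CJ animals. The mean of 10 stromal fibroblast markers (collagens, decorin, lumican and the like) was 0.37 in IAJ 3, against -1.97 to -1.35 in the other AI animals, -2.03 to -1.65 in SCNT animals and -0.44 to 0.26 in CJ animals. For these genes IAJ 3 therefore lay with or just beyond the CJ animals and not with its group. OXTR was -1.20 in IAJ 3, below all CJ animals (-0.32 to 0.24) and above the other AI animals (-4.38 to -2.59). Calls of RAB genes, and counts of called genes, that changed against CJ without this animal are given both ways. In intercaruncular tissue of the IVF-ET part, IVF-ET 4 and IAT 4 stood apart in the same genes, as described with that comparison.

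The arrays with CJ asked how SCNT and AI animals differed from CJ animals in intercaruncular tissue. In SCNT animals, 13 of the 41 RAB genes passed the threshold (limma, Benjamini-Hochberg adjusted p under 0.05 over all probes), 5 higher and 8 lower. That is 31.7% of the set, against 21.7% of all 13824 probes tested. The regulator of secretion RAB3B rose most and the endosomal RAB31 fell most. Of 8 GTPases of the endoplasmic reticulum and Golgi, RAB1A, RAB2A, RAB6A and RAB18 fell and RAB30 rose. RAB8A, RAB9A and RAB24 also rose, and RAB5A, RAB32 and RAB5IF fell. The median log2 difference of the 41 genes was 0.00, against 0.01 over all probes, and the median size without sign was 0.16 against 0.11. All 13 kept their sign in both dye orientations, and each had its direction on at least 8 of the 10 arrays. The same arrays gave the calls, so this agreement is largely given and is no separate support. Sizes could differ by dye. RAB30 had a mean of 0.13 with SCNT in Cy5 and 0.53 in Cy3, whereas RAB8A had 0.33 and 0.31.

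**Figure D1:**
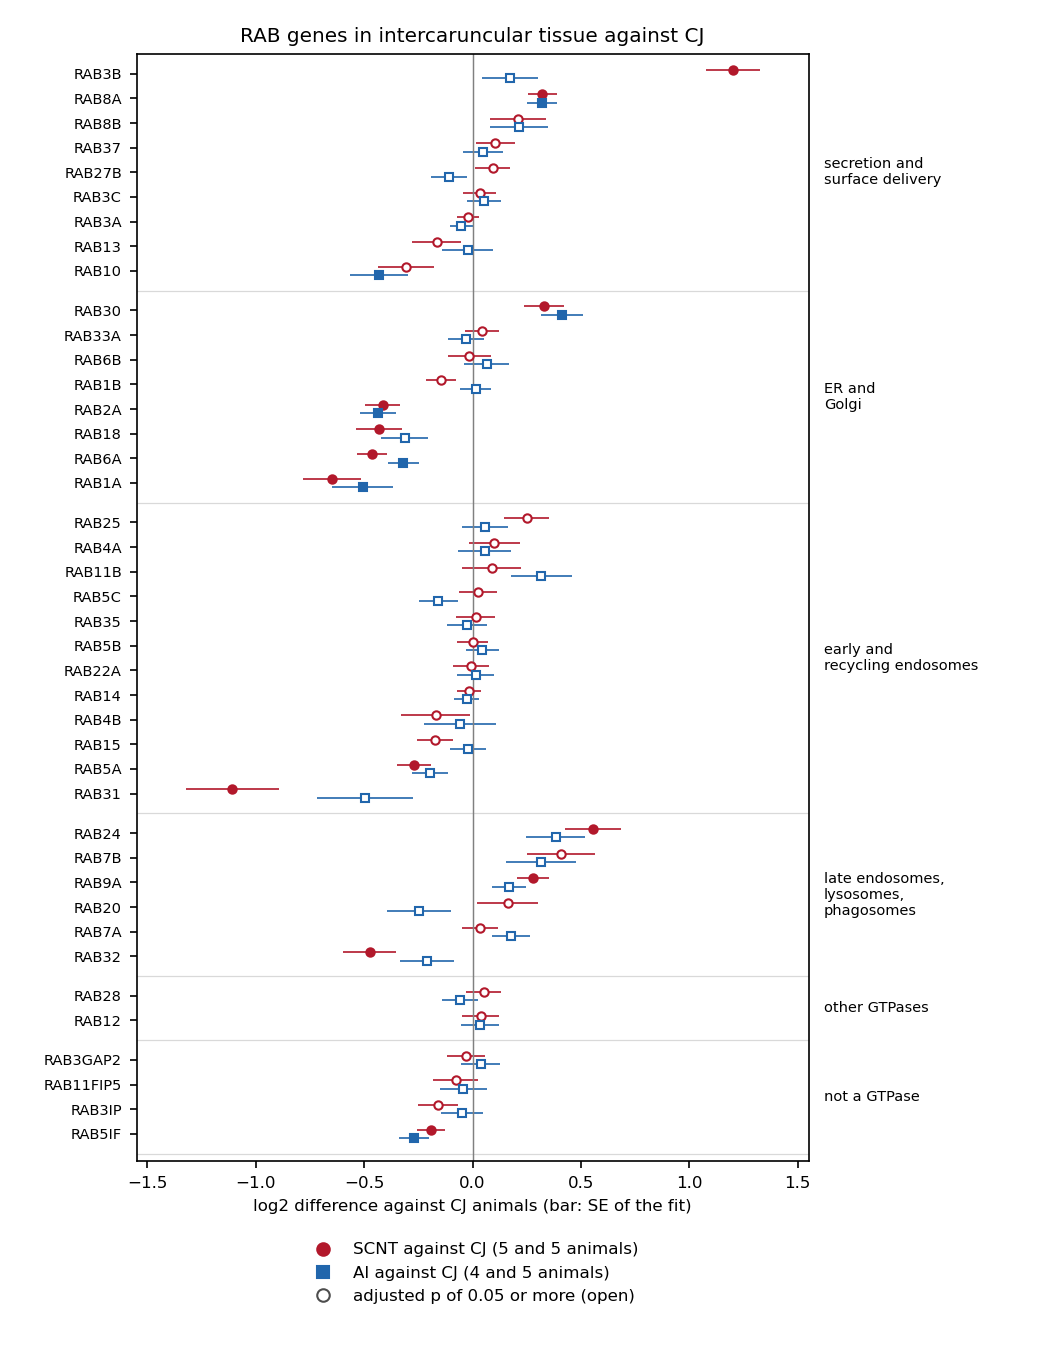
Log2 difference of each of the 41 RAB genes in SCNT (circles) and AI (squares) animals against CJ animals, intercaruncular tissue, grouped by compartment, with the SE of the fit as the bar. Filled symbols have an adjusted p under 0.05; RAB3B stands out on the right in SCNT (1.20) but not in AI (0.17), and RAB1A, RAB2A and RAB6A are filled on the left in both.

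Among the 9 GTPases of secretion and delivery to the cell surface, RAB3B changed most. RAB3B sits on secretory vesicles and acts in regulated exocytosis. Its log2 level relative to the mean of CJ was 1.57, 1.41, 0.88, 0.84 and 1.30 in SCNT animals 1 to 5, against 0.62, 0.30, -0.05 and -0.06 in AI animals 1 to 4 and -0.35, 0.20, 0.16, 0.04 and -0.05 in CJ animals 1 to 5. All 5 SCNT animals lay above every AI and every CJ animal, while AI and CJ animals overlapped. The AI difference was 0.17 ± 0.13 (adjusted p = 0.509) with IAJ 3 and 0.34 ± 0.14 (adjusted p = 0.096) without it. RAB3B rose in SCNT animals by 1.20 ± 0.12 log2 (SE), or 2.30-fold, on 10 of 10 arrays (adjusted p = 9.05e-07). Its relatives RAB3A (-0.02) and RAB3C (0.03), which act in the same step in nerve and gland cells, did not pass the test, and the difference between relatives was not tested.

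RAB8A carries vesicles to the plasma membrane and to the cilium. Its log2 level was 0.30, 0.46, 0.19, 0.29 and 0.36 in SCNT animals, 0.20, 0.38, 0.22 and 0.56 in AI animals and 0.07, -0.03, -0.06, 0.07 and -0.05 in CJ animals. Every SCNT and every AI animal lay above every CJ animal, IAJ 3 included. RAB8A rose by 0.32 ± 0.07 in SCNT (10 of 10 arrays, adjusted p = 0.00129) and by 0.32 ± 0.07 in AI animals (8 of 10 arrays, adjusted p = 0.00271). RAB8B, its close relative, had a difference of 0.21 in SCNT and 0.21 in AI animals and did not pass in either, and its second probe gave 0.05 and 0.02. RAB10, which acts in transport to the basolateral surface of epithelial cells, had log2 levels of -0.45, -0.64, 0.37, -0.45 and -0.36 in SCNT animals, -0.68, -0.37, -0.41 and -0.28 in AI animals and 0.06, -0.17, -0.13, 0.21 and 0.03 in CJ animals. The AI animals all lay below the CJ animals, but SCNT 3 lay above them. RAB10 fell in AI animals by 0.43 ± 0.13 (10 of 10 arrays, adjusted p = 0.0317) and differed by -0.31 ± 0.13 in SCNT animals (adjusted p = 0.102). The call in AI ended without any 1 of 7 of the 14 animals, among them each AI animal. Of the other members of this group, RAB13, RAB27B and RAB37 did not pass in SCNT or AI animals, with differences of -0.17 to 0.10.

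The GTPases of the endoplasmic reticulum and Golgi had a median difference of -0.28 log2 in SCNT and -0.17 in AI animals. Over all probes the median was 0.01 in each. The grouping by compartment was made after the results were seen, and the group medians were not tested. RAB1A starts transport out of the endoplasmic reticulum. Its log2 level was -0.66, -1.03, -0.25, -0.86 and -0.45 in SCNT animals, -0.96, -0.77, -0.47 and 0.13 in AI animals and -0.05, -0.26, -0.12, 0.31 and 0.12 in CJ animals. SCNT 3 reached the lowest CJ animal, and IAJ 4 lay among the CJ animals. RAB1A fell by 0.65 ± 0.13 in SCNT (9 of 10 arrays, adjusted p = 0.00116) and by 0.51 ± 0.14 in AI animals (9 of 10 arrays, adjusted p = 0.0148). The call in AI ended without CJ 4, CJ 5, IAJ 1 or IAJ 2, with adjusted p up to 0.107. The SD of the 4 AI levels was 0.48. The fit uses 1 correlation for all probes, so its SE may be too small for a gene with such a spread. RAB1B, which acts in the same step, differed by -0.15 in SCNT and 0.01 in AI animals and did not pass.

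RAB2A controls traffic between the endoplasmic reticulum and the Golgi. Its log2 level was -0.28, -0.43, -0.18, -0.56 and -0.63 in SCNT animals, -0.60, -0.43, -0.42 and -0.30 in AI animals and 0.12, -0.06, -0.19, 0.19 and -0.07 in CJ animals. All AI animals lay below all CJ animals, whereas SCNT 3 lay within the CJ range. RAB2A fell by 0.41 ± 0.08 in SCNT (9 of 10 arrays, adjusted p = 0.000824) and by 0.44 ± 0.08 in AI animals (9 of 10 arrays, adjusted p = 0.00123). RAB6A runs the return of vesicles through the Golgi to the endoplasmic reticulum. Its log2 level was -0.61, -0.59, -0.30, -0.25 and -0.57 in SCNT animals, -0.25, -0.20, -0.37 and -0.41 in AI animals and 0.01, 0.06, -0.08, -0.07 and 0.08 in CJ animals. No SCNT or AI animal reached the CJ range, and the CJ animals varied little. RAB6A fell by 0.46 ± 0.07 in SCNT (adjusted p = 4.05e-05) and by 0.32 ± 0.07 in AI animals (adjusted p = 0.00308), on 10 of 10 arrays each. RAB6B, the form known from neurons, differed by -0.01 and 0.07.

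RAB18 acts on the endoplasmic reticulum and lipid droplets. It fell by 0.43 ± 0.10 in SCNT animals (8 of 10 arrays, adjusted p = 0.00441), a call that ended without CJ 4 (-0.31, adjusted p = 0.0726). In AI animals it differed by -0.31 ± 0.11 (adjusted p = 0.0559). RAB30, a Golgi GTPase, went the other way. By animal, the log2 level was 0.36, 0.25, 0.13, 0.48 and 0.43 in SCNT animals, 0.11, 0.32, 0.83 and 0.12 in AI animals and 0.02, 0.09, 0.12, -0.13 and -0.09 in CJ animals. The highest AI value was that of IAJ 3, and 2 other AI animals lay near the top of the CJ range. RAB30 rose by 0.33 ± 0.09 in SCNT (8 of 10 arrays, adjusted p = 0.0143) and by 0.41 ± 0.10 in AI animals (8 of 10 arrays, adjusted p = 0.00532). Without IAJ 3 the AI difference was 0.19 ± 0.09 (adjusted p = 0.167), and the SCNT call ended without CJ 4, CJ 5, SCNT 4 or SCNT 5, with adjusted p up to 0.0936. RAB33A, which acts at the Golgi and in autophagy, did not pass (0.04 in SCNT and -0.03 in AI animals).

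Early and recycling endosomes are served by 12 of the genes, of which RAB31 and RAB5A fell in SCNT animals and none passed in AI animals. RAB31 works between the trans-Golgi network and endosomes. Log2 levels were -1.33, -1.14, -0.86, -1.03 and -1.18 in SCNT animals, -0.97, -1.23, 0.49 and -0.85 in AI animals and 0.41, 0.06, -0.25, 0.04 and -0.26 in CJ animals. All SCNT animals and 3 of the AI animals lay below all CJ animals, and IAJ 3 lay above them. RAB31 fell by 1.11 ± 0.21 in SCNT animals, or 2.16-fold lower, on 10 of 10 arrays (adjusted p = 0.000659). In AI animals the difference was -0.50 ± 0.22 (adjusted p = 0.159) with IAJ 3 and -1.14 ± 0.13 (adjusted p = 5.27e-06) without it. RAB5A, which drives the fusion of early endosomes, fell by 0.27 ± 0.08 in SCNT animals (8 of 10 arrays, adjusted p = 0.0181), a call lost with the first spot of each probe alone and in 6 of the 14 fits that leave out 1 animal (adjusted p up to 0.09). RAB5B (0.00) and RAB5C (0.03) were not called. The recycling GTPases RAB4A, RAB4B, RAB11B, RAB14, RAB15, RAB22A and RAB35 did not pass in SCNT or AI animals. RAB25, a relative of RAB11 found in epithelial cells, differed by 0.25 ± 0.10 in SCNT animals (adjusted p = 0.0928) and 0.06 in AI animals.

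Of 6 GTPases of late endosomes, lysosomes and phagosomes, RAB24 and RAB9A rose and RAB32 fell in SCNT animals. RAB24 takes part in the clearance of autophagosomes. The animals had log2 levels of 0.88, 0.46, 0.46, 0.70 and 0.27 in SCNT animals, 0.69, 0.63, 0.02 and 0.39 in AI animals and -0.15, -0.06, 0.27, -0.20 and 0.15 in CJ animals. Every SCNT animal lay above every CJ animal, SCNT 5 only just, and IAJ 3 was the only AI animal within the CJ range. RAB24 rose by 0.55 ± 0.13 in SCNT animals (9 of 10 arrays, adjusted p = 0.00327). In AI animals it differed by 0.38 ± 0.13 (adjusted p = 0.0581) with IAJ 3 and by 0.65 ± 0.13 (adjusted p = 0.00107) without it. RAB32 acts on lysosome-related organelles and mitochondria. Relative to the mean of CJ, the log2 level was -0.61, -0.24, -0.63, -0.38 and -0.51 in SCNT animals, -0.24, -0.80, 0.30 and -0.41 in AI animals and -0.06, 0.20, 0.07, -0.12 and -0.09 in CJ animals. Again IAJ 3 alone of the AI animals was not below the CJ animals. RAB32 fell by 0.47 ± 0.12 in SCNT animals (10 of 10 arrays, adjusted p = 0.00626), against a difference of -0.21 ± 0.12 (adjusted p = 0.35) in AI animals with IAJ 3 and -0.49 ± 0.11 (adjusted p = 0.00255) without it. RAB9A, which returns receptors for lysosomal enzymes to the Golgi, rose by 0.28 ± 0.08 in SCNT animals (10 of 10 arrays, adjusted p = 0.00983; 0.20, adjusted p = 0.0923, without CJ 4) and differed by 0.17 in AI animals (adjusted p = 0.175). RAB7A, the main late endosomal GTPase, RAB7B and the phagosomal RAB20 did not pass in either group.

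RAB12 and RAB28, placed in none of these compartments here, differed by 0.04 and 0.05 in SCNT animals and were not called. RAB5IF fell by 0.19 ± 0.07 in SCNT (8 of 10 arrays, adjusted p = 0.041) and by 0.27 ± 0.07 in AI animals (10 of 10 arrays, adjusted p = 0.00829). The SCNT call was lost in 8 of the 14 fits that leave out 1 animal (adjusted p up to 0.159), and the AI call without CJ 4 (adjusted p = 0.0701). RAB3IP, RAB3GAP2 and RAB11FIP5 did not pass. Probes of close relatives such as RAB1A and RAB1B can bind each other's transcripts, and this was not tested.

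In AI animals as labelled, 7 of the 41 genes passed, 17.1% against 15% of all probes. RAB8A and RAB30 rose, and RAB1A, RAB2A, RAB6A, RAB10 and RAB5IF fell. All 7 kept their sign in both dye orientations, on the same arrays that gave the calls. RAB6A had a mean of -0.51 with AI in Cy5 and -0.13 in Cy3, whereas RAB8A had 0.27 and 0.36. The median of the 41 differences was -0.02, against 0.01 over all probes. Without IAJ 3, 9 genes passed, 3 higher and 6 lower, while 20.4% of all probes passed. RAB31, RAB32, RAB24 and RAB8B (0.45 ± 0.14, adjusted p = 0.029) then joined, and RAB30 and RAB10 (-0.45 ± 0.16, adjusted p = 0.0537) dropped out. Without CJ 4 only 4 passed, and the share of all probes in that fit is not given here. Leaving IAJ 3 out also raised the SCNT count to 14, by RAB7B (0.41 ± 0.12, adjusted p = 0.0134). The share of all probes called in SCNT animals then rose too, from 21.7% to 27.5%. SCNT and AI were compared with the same CJ animals, so both columns of differences share whatever is particular to these 5 animals.

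**Figure D2:**
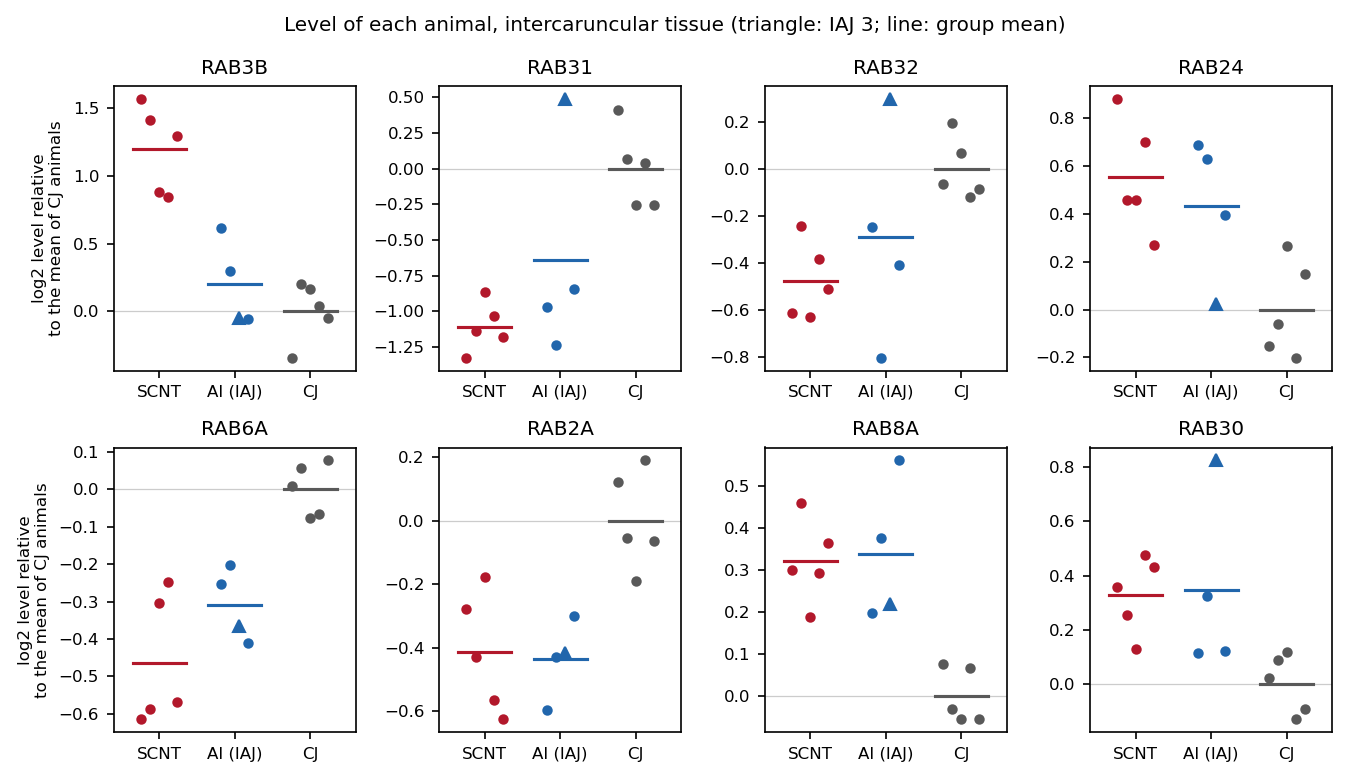
Log2 level of 8 RAB genes in each intercaruncular animal, relative to the mean of the CJ animals, for SCNT (5), AI (4, IAJ) and CJ (5) animals, with lines at the group means. The triangle is IAJ 3, which lies within or above the CJ range for RAB31, RAB32 and RAB24 (0.49, 0.30 and 0.02) but with its own group for RAB6A, RAB2A and RAB8A (-0.37, -0.42 and 0.22).

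IAJ 3 thus divided the changed RAB genes. For RAB31, RAB32 and RAB24 it had levels of 0.49, 0.30 and 0.02, within or above the CJ range. For RAB6A, RAB2A and RAB8A it had levels of -0.37, -0.42 and 0.22, outside the CJ range on the side of the other AI animals. These genes were picked for this contrast after their values were seen, and the contrast was not tested.

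Some markers of cell types moved with these groups. Of all probes, 21.7% were called in SCNT and 15% in AI animals, and 27.5% and 20.4% without IAJ 3. In SCNT animals 9 of 10 stromal fibroblast markers and 5 of 7 smooth muscle markers were lower, 7 of 13 epithelial markers were higher and 1 lower, 4 of 8 endothelial markers were higher and 1 lower, none of 10 leukocyte markers was called, and 4 of 8 trophoblast markers were higher. In AI animals as labelled, 5 of the 10 stromal and 3 of the 7 smooth muscle markers were lower, 3 of the 13 epithelial markers were higher, 2 of the 8 endothelial markers were higher and 1 lower, and no leukocyte or trophoblast marker was called. Without IAJ 3 these AI counts were 8 stromal and 4 smooth muscle markers lower, 6 epithelial higher and 2 lower, 2 endothelial higher and 1 lower, 1 leukocyte higher and no trophoblast marker. The SCNT counts that changed without IAJ 3 were 10 stromal markers lower, 8 epithelial higher and 2 lower, and 1 leukocyte higher. The mean epithelial marker level was 0.10 to 0.50 in SCNT, 0.14 to 0.30 in AI and -0.11 to 0.07 in CJ animals. The part of these cell types in the RAB differences was not tested. In whole tissue, fewer cells of a type and less RNA per cell cannot be told apart.

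How SCNT differed from AI animals was asked in intercaruncular tissue through CJ, in the same fit. Of the 41 genes RAB3B alone passed (2.44%, against 0.282% of all probes, which is 39 of 13824). Its levels, given above, did not overlap between the 5 SCNT animals (0.84 to 1.57) and the 4 AI animals (-0.06 to 0.62). In the arrays with IVF-ET, the 5 intercaruncular AI (IAT) animals spread more widely, from -0.67 to 1.40 relative to their own mean. Those arrays hold no SCNT or CJ animals, so the 2 scales are not linked. The difference was 1.03 ± 0.16 log2, or 2.04-fold (adjusted p = 0.00364). The call ended without IAJ 3 (0.86 ± 0.17, adjusted p = 0.0736), without CJ 3 (0.96, adjusted p = 0.0623) and without CJ 4 (0.98, adjusted p = 0.0547), and in each of these fits no other RAB gene passed. Without IAJ 3 the share of all probes that passed in this comparison also fell, from 0.282% to 0.0579%. The next largest differences were -0.61 for RAB31 (adjusted p = 0.608; 0.03 without IAJ 3) and 0.41 for RAB20 (adjusted p = 0.60). RAB8A, RAB2A and RAB24 differed by 0.00, 0.02 and 0.17 (RAB24 by -0.10 without IAJ 3). The trophoblast marker mean, beside RAB3B, was 0.71, 0.00, 0.07, 1.27 and 0.20 in SCNT animals 1 to 5, and -0.08 to 0.16 in AI animals. The part of trophoblast cells in the RAB3B difference was not tested.

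In caruncular tissue the pools set SCNT directly against AI. None of the 41 genes passed, nor did any of the 13824 probes (0%), while 6 of the genes and 1744 probes had an unadjusted p under 0.05 (limma). The smallest p-values were those of RAB32, RAB3B and RAB30. RAB32 had log2 ratios of 0.40 and 0.31 in the pairs of pools (0.35 ± 0.08, adjusted p = 0.23), RAB3B 0.43 and 0.28 (0.35 ± 0.09, adjusted p = 0.249) and RAB30 0.22 and 0.43 (0.33 ± 0.09, adjusted p = 0.285). RAB32 and RAB3B lay above 0 on 4 of 4 arrays and RAB30 on 3 of 4. In the same pools 8 trophoblast markers had a median of 0.93 and 13 epithelial markers a median of -0.34, none of them called, and their part in the RAB values was not tested. RAB20 had 0.32 and 0.22, also on 4 of 4 arrays (adjusted p = 0.305). RAB31 was at -0.01, and the rest of the set lay between -0.17 and 0.26. With 2 pairs of pools the precision is low, and the animals behind them may differ from those in the intercaruncular arrays.

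**Figure D3:**
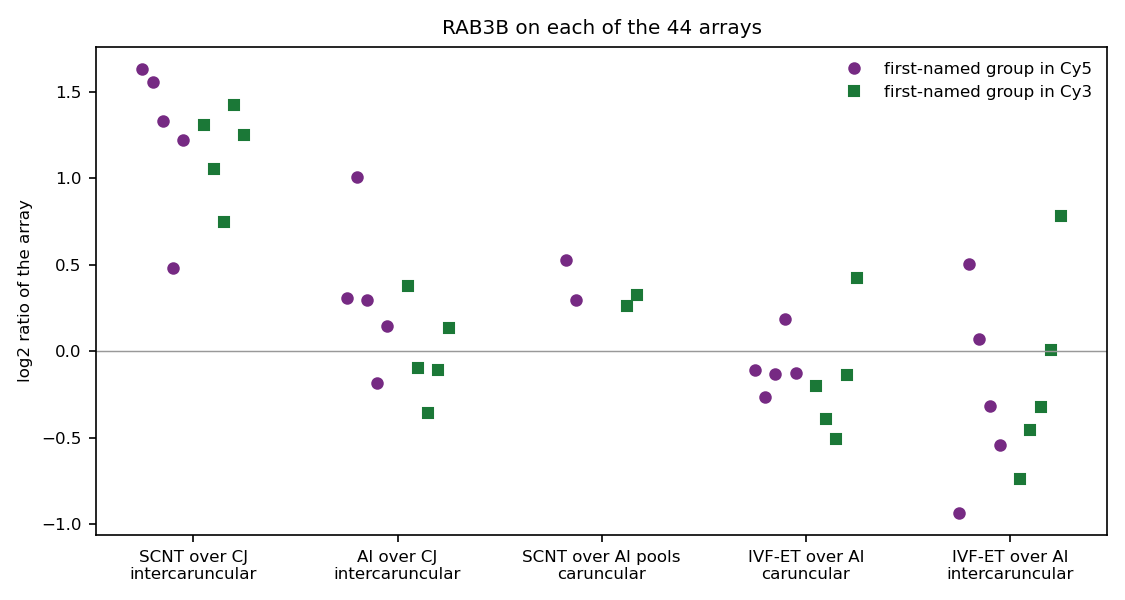
Log2 ratio of RAB3B on each of the 44 arrays, first-named over second-named group, with the dye of the first-named group as symbol. All 10 arrays of SCNT over CJ and all 4 of the SCNT over AI pools lie above 0, while the other 3 comparisons have arrays on both sides.

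The arrays of IVF-ET and AI asked how the tissue differed between these origins of the embryo. In caruncular tissue none of the 41 genes passed, against 0.0217% of all probes (3 of 13824); 2 of the genes and 1260 probes had an unadjusted p under 0.05 (limma). Differences of the 41 genes lay between -0.18 and 0.22, with a median of -0.03 against -0.01 over all probes. RAB5B, an early endosomal GTPase, had the smallest p. The mean ratios of IVF-ET animals 1 to 5 to the AI animals beside them were 0.21, 0.05, 0.35, 0.24 and 0.27, all above 0, but the difference of 0.22 ± 0.06 (9 of 10 arrays) did not pass (adjusted p = 0.361). RAB20 (-0.15 ± 0.07, adjusted p = 0.542) and RAB30 (-0.18 ± 0.08, adjusted p = 0.555) followed.

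In intercaruncular tissue none of the 41 genes passed either, against 0.00724% of the probes (1 of 13816), and 4 of the genes and 1285 probes had an unadjusted p under 0.05. RAB14, which links the Golgi and endosomes, had mean ratios of 0.09, -0.02, 0.56, 0.59 and 0.33 in IVF-ET animals 1 to 5 and a difference of 0.31 ± 0.10 (adjusted p = 0.469). RAB33A differed by 0.22 ± 0.09 (adjusted p = 0.488), by 0.46 on the arrays with IVF-ET in Cy5 and by -0.03 on those with it in Cy3. RAB3A differed by 0.20 (adjusted p = 0.488). The difference between the areas was significant for no RAB gene, against 0.00723% of the probes (1 of 13824), and 5 of the genes and 1070 probes had an unadjusted p under 0.05. RAB6B (0.21), RAB3A (-0.23) and RAB33A (-0.21) had the smallest p-values (adjusted p from 0.58 to 0.634).

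**Figure D4:**
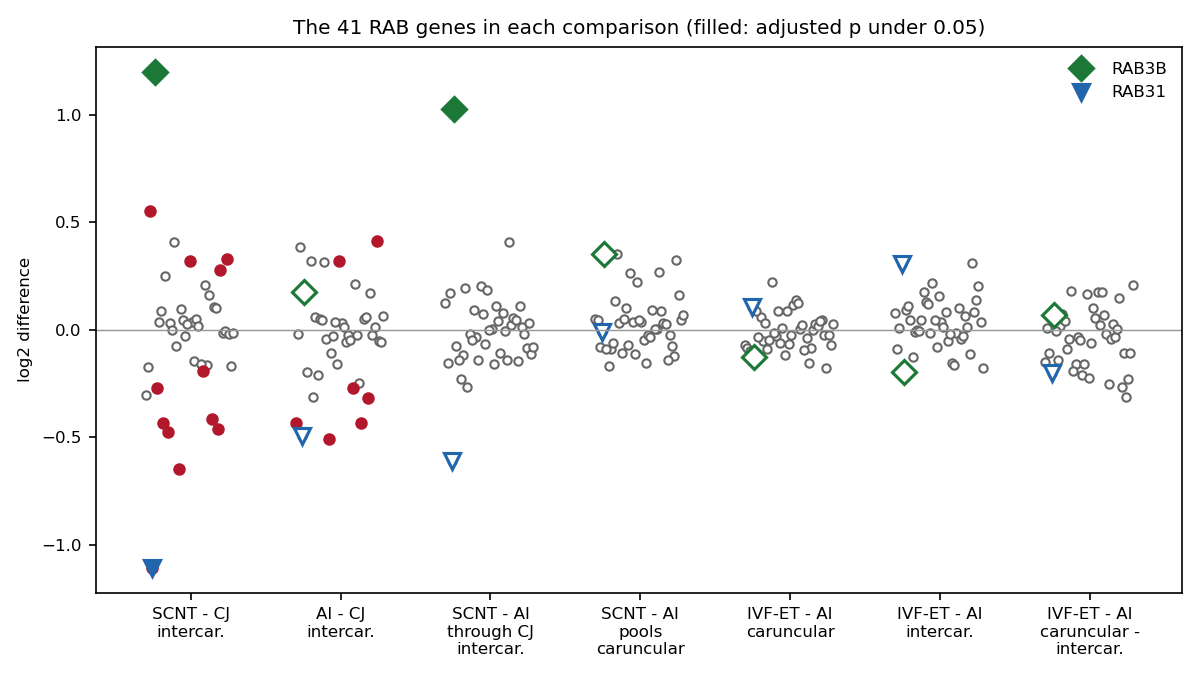
Log2 differences of the 41 RAB genes in the 7 comparisons, 1 point per gene, filled where the adjusted p is under 0.05; RAB3B is the diamond and RAB31 the triangle. Filled points are found in SCNT against CJ (13), AI against CJ (7) and SCNT against AI through CJ (1), and in none of the other 4 comparisons.

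Animals of 1 group varied widely in the intercaruncular arrays. RAB24 had log2 levels relative to the mean of the AI animals of -0.63, -0.57, -0.51, 1.61 and 0.15 in IVF-ET animals 1 to 5, and of -0.53, 0.00, -0.88, 1.42 and -0.01 in IAT 1, 2, 3, 4 and 7. RAB32 had -0.68 in IVF-ET 4 and -0.73 in IAT 4, against -0.06 to 0.37 in the other 8 animals. RAB3B reached 0.61 in IVF-ET 4, 0.51 in IVF-ET 5 and 1.40 in IAT 4, against -0.94 to 0.06 in the others. RAB31 was -1.53 in IAT 4 and -0.24 in IVF-ET 4, against -0.21 to 0.76 in the others. For RAB24 and RAB32, 1 animal of each group thus lay far from the rest, on the same side, whereas for RAB31 IVF-ET 4 was close to IAT 2 and for RAB3B IVF-ET 5 was nearly as high as IVF-ET 4. The same animals stood apart in markers: the interferon-stimulated mean was 4.20 in IVF-ET 4 and 4.43 in IAT 4, against -2.59 to 0.58 in the others, and the stromal mean was -2.31 and -2.53, against -0.41 to 1.21. RAB6A, with 0.34 in IVF-ET 4, -0.10 in IAT 4 and -0.27 to 0.37 in the others, did not set them apart. In caruncular tissue of IVF-ET 4 and IAT 4, RAB24 was at -0.04 and 0.16 and the stromal mean at -0.13 and 0.08. With both animals left out, an alternative chosen after seeing the data that keeps 7 of 10 arrays, again none of the 41 genes passed (lowest adjusted p 0.694).

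**Figure D5:**
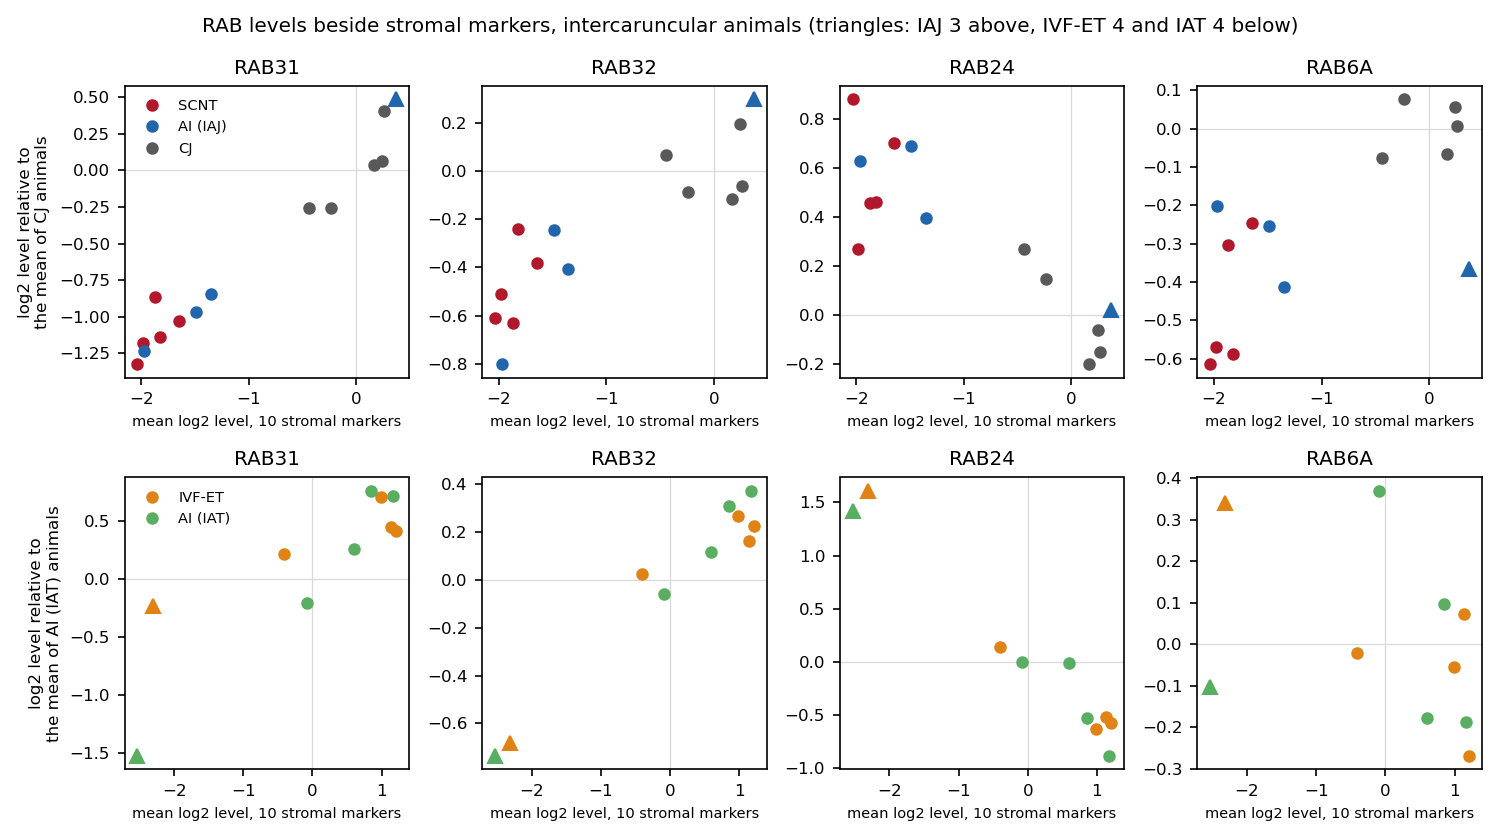
Log2 level of RAB31, RAB32, RAB24 and RAB6A in each intercaruncular animal against the mean log2 level of 10 stromal markers in the same animal, for SCNT, AI (IAJ) and CJ animals (top) and IVF-ET and AI (IAT) animals (bottom). Triangles are IAJ 3 (top) and IVF-ET 4 and IAT 4 (bottom), the last pair lowest in stromal markers and RAB32 and highest in RAB24; for RAB6A, IAJ 3 lay at -0.37 among the low values despite a stromal mean of 0.37.

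In IVF-ET 4 and IAT 4, RAB24 was high and RAB32 low, the sides on which the SCNT animals lay relative to CJ animals. RAB3B was on that side too (0.61 and 1.40), as was RAB31 in IAT 4 (-1.53), whereas RAB6A did not set these animals apart. Both quantities of each point come from the same arrays, and the genes shown were picked after their values were seen, so the plot is a description. The part of stromal cells in these levels was not tested.

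The proteins that switch, carry and serve RAB GTPases were examined as lists. Of 51 measured RAB regulators, 4 rose and 7 fell in SCNT animals, and 6 rose and 5 fell in AI animals, with medians of 0.01 in both against 0.01 over all probes. The called share was 21.6% in both, against 21.7% of all probes in SCNT and 15% in AI animals. With IAJ 3 in the fit, the SCNT share is thus that of the array as a whole. Without IAJ 3, 8 regulators rose and 7 fell in AI animals (29.4%, against 20.4% of all probes). In SCNT animals 7 then rose and 11 fell (35.3%, against 27.5% of all probes). RABAC1, a Golgi protein that binds prenylated RABs, fell by 1.06 ± 0.09 in SCNT (adjusted p = 8.28e-08) and by 1.01 ± 0.09 in AI animals (adjusted p = 5.19e-07). SGSM1, a TBC-domain protein, rose by 0.83 ± 0.13 in SCNT and 0.59 ± 0.13 in AI animals. TBC1D1, a GTPase-activating protein for RABs of glucose transporter vesicles, fell by 1.14 ± 0.17 in SCNT and 0.77 ± 0.18 in AI animals. DENND2B, an exchange factor for RAB13, rose by 0.43 ± 0.09 and 0.52 ± 0.09. Chosen after their values were seen, GDI2, which extracts RABs from membranes, fell by 0.63 ± 0.11 and 0.41 ± 0.12, and RABGGTB, the catalytic subunit of the enzyme that attaches their lipid anchor, fell by 0.35 ± 0.11 and 0.45 ± 0.11. Without IAJ 3 the AI difference of RABGGTB was -0.33 ± 0.13 (adjusted p = 0.0942).

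Effectors and tethers comprised 50 measured genes, of which 8 rose and 4 fell in SCNT and 7 rose and 2 fell in AI animals (medians 0.02 and 0.04). These are 24% and 18% of the list, near the 21.7% and 15% of all probes. Without IAJ 3, 8 rose and 3 fell in AI animals (22%, against 20.4%), and 9 rose and 5 fell in SCNT animals (28%, against 27.5%). GORASP2, a Golgi stacking protein, fell by 0.71 ± 0.07 in SCNT (adjusted p = 1.1e-06) and by 0.37 ± 0.08 in AI animals (adjusted p = 0.00193). USO1, a tether recruited by RAB1, fell by 0.44 ± 0.08 and 0.32 ± 0.08. RABEP1, an effector of RAB5, rose by 0.60 ± 0.11 and 0.69 ± 0.12, VPS11, a subunit of the tethers of endosomes and lysosomes, by 0.32 ± 0.06 and 0.40 ± 0.07, and the RAB effector MICAL3 by 0.43 ± 0.13 and 0.77 ± 0.14. Among 32 SNARE genes, the proteins that fuse vesicles with their target and their helpers, 4 rose and 9 fell in SCNT and 2 rose and 7 fell in AI animals (medians -0.09 and -0.13, against 0.01 over all probes in each). The called shares were 40.6% and 28.1%, against 21.7% and 15% of all probes. Without IAJ 3, 3 rose and 9 fell in AI animals (37.5%, against 20.4%), and 4 rose and 12 fell in SCNT animals (50%, against 27.5%). SEC22B, which acts between endoplasmic reticulum and Golgi, fell by 0.64 ± 0.14 and 0.70 ± 0.14, USE1, in the return step, by 0.36 ± 0.08 and 0.34 ± 0.08, and STX2 by 0.41 ± 0.09 and 0.50 ± 0.09. VTI1B fell by 0.50 ± 0.10 and STX5 by 0.40 ± 0.08 in SCNT animals, and missed the threshold in AI animals (-0.28 and -0.22) but passed it without IAJ 3 (-0.35, adjusted p = 0.0277, and -0.30, adjusted p = 0.0384). STX8 differed by -0.24 in SCNT animals (adjusted p = 0.0671) and fell by 0.45 ± 0.10 in AI animals. NAPA, which helps recycle SNAREs, rose by 0.32 ± 0.06 and 0.27 ± 0.07.

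The ARF family of GTPases includes members that recruit vesicle coats and others, such as ARL2 and ARL3, with different roles. Of 9 measured, 5 fell and none rose in SCNT, and 4 fell and none rose in AI animals, with medians of -0.42 and -0.29 against 0.01 over all probes in each. The share that fell was 55.6% in SCNT and 44.4% in AI animals, where 11.3% and 8.08% of all probes fell, but the list is small. Without IAJ 3 again 4 fell and none rose in AI animals. ARL2 fell by 0.85 ± 0.12 in SCNT and 0.48 ± 0.12 in AI animals, ARL3 by 0.59 ± 0.09 and 0.30 ± 0.09, ARF4 by 0.42 ± 0.09 and 0.58 ± 0.10 and ARF2 by 0.56 ± 0.13 and 0.53 ± 0.14. None of these lists had a called gene in the pools, in the IVF-ET comparisons or in SCNT against AI through CJ.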

How the data were processed

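Log2 ratios of the 2 dyes, 1 per spot, were deposited by the authors. As a check of the base, 331 values below -4 were turned into ratios, rounded to 4 decimals and turned back: 100% returned within 6e-05 of the deposited value with base 2, against 0.9% with base e and 0% with base 10. Per the labels' protocols, total RNA was copied from oligo-dT primers and coupled to Cy3 or Cy5. How background was corrected and arrays normalized is not given in the sources used here. Arrays have no read depth, and the number of animals limits precision.

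The 27648 spots form 13824 probes, whose 2 spots were averaged. Supplied annotation names 1 gene for 8645 probes, several for 105 and none for 5074, and 8620 symbols matched the RefSeq gene table. The SD of an array's log2 ratios was 0.221 to 0.62. Each probe's ratios were fitted in limma 3.58.1 (R 4.3.3). The model had a dye term, and arrays that share an animal were given 1 common correlation (0.13 and 0 in the caruncular and intercaruncular IVF-ET loops, 0.01 over both, 0.12 with CJ). Pools were averaged per dye-swapped pair. Moderated p-values were adjusted by Benjamini-Hochberg over all probes, with 0.05 as the threshold and 80% of arrays required. Errors are SE unless stated. Because the correlation is the same for every probe, SE and p may be too small for genes that vary more between animals than most. Levels per animal are least-squares estimates over linked arrays. IAJ 3, on 4 arrays, weighs more in the fit than in a plain mean of these levels. The fits were run on simulated data with 1 correlation for every probe of a loop and planted changes larger than nearly all RAB differences. Such data cannot show how the fits fare for smaller changes or for genes that vary more between animals. Alternatives changed the correlation, dye term, scaling, spots, probes, arrays and animals.

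Of the RAB genes, those past the threshold in any comparison are described in full, with every animal for the 6 largest per comparison, and otherwise the 3 with the smallest p; from each pathway list, up to 4 with the smallest adjusted p are named per comparison. Members and lists were chosen with earlier results of these data known, and the grouping by compartment was made after the results were seen. Some genes and lists examined are not reported here.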

Additional observations from a re-analysis of the deposited data

Results flagged for a closer look

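RAB10 in SCNT 3 had a log2 level of 0.37, far from the other SCNT animals, which lay between -0.64 and -0.36. RAB5IF in IAJ 1 had a level of -0.13, apart from the other AI animals at -0.32 to -0.30, though the gap is small in size. Of 48 groups of animals examined for such a value 2 held one, and chance gives about 1 in 20. RAB3B differed between SCNT and AI animals through CJ by 1.03 log2, the only RAB gene whose effect against CJ differed between the groups in a test of the difference itself.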

How the results depend on the processing

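No RAB gene past the threshold in a comparison, or among the 3 with the smallest p where none passed, reversed its sign under the alternatives run. Other values were not followed through every alternative, and without IAJ 3 some turned. In SCNT against AI through CJ these included RAB31 (0.03), RAB32 (0.02), RAB24 (-0.10), RAB30 (0.14) and RAB11B (0.15). In AI against CJ they included RAB11B (-0.06), RAB1B (-0.12) and RAB22A (-0.11). Over settings other than leaving out animals, the count of called genes was 10 to 15 in SCNT against CJ, 6 to 9 in AI against CJ, 1 in SCNT against AI through CJ and 0 in the other comparisons; 273 of the values for single genes kept their side of the threshold and 11 lost it. With 1 animal left out the counts ranged over 9 to 14, 4 to 9 and 0 to 1, and 0 elsewhere. The lowest of these counts were 4 for AI without CJ 4, and 0 for SCNT against AI through CJ without CJ 3, CJ 4 or IAJ 3. The share of all probes called moved as well. Without IAJ 3 it went from 21.7% to 27.5% in SCNT against CJ and from 15% to 20.4% in AI against CJ. In SCNT against AI through CJ it went from 0.282% to 0.0579%. For the other alternatives this share is not given here. A shift in their counts can therefore not be read as particular to RAB genes. With an animal or pair left out, 366 values for single genes were classed as unchanged and 36 lost their call. The cause of these losses was not tested. With all arrays scaled to 1 median absolute deviation, RAB30 (0.23), RAB5A (-0.21) and RAB5IF (-0.15) in SCNT and RAB10 (-0.43) in AI missed the threshold. With the first spot alone RAB5A (-0.21), RAB5IF (-0.19) and RAB9A (0.23, adjusted p = 0.0621) in SCNT did so, with the second alone RAB10 (-0.35) in AI, and with only the 10 arrays of a comparison RAB5IF (-0.19) in SCNT and RAB1A (-0.51, adjusted p = 0.0663) and RAB30 (0.39, adjusted p = 0.0633) in AI. RAB1A, RAB2A, RAB3B, RAB6A, RAB8A, RAB24, RAB31 and RAB32 kept their call in SCNT against CJ under every alternative run. A replicate block for animals present in both areas had an estimated correlation of 0 and left 0 RAB genes called in the difference between areas. Leaving out 1 pair of pools leaves a value with no test. Spot brightness was not analysed here, so dim probes are not marked.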

Other observations

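Genes of the RAS family, small GTPases of growth signalling, were described in the same way. Of 20 RAS-family genes, 2 rose and 2 fell in SCNT and 2 rose and 1 fell in AI animals. These are 20% and 15% of the list, near the 21.7% and 15% of all probes. Without IAJ 3 it was 3 higher and 2 lower in each group (25%, against 27.5% in SCNT and 20.4% in AI animals). RHEB, an activator of mTOR, rose by 0.65 ± 0.14 and RRAD fell by 1.28 ± 0.29 in SCNT animals, while NRAS fell by 0.39 ± 0.09 and NKIRAS1 rose by 0.59 ± 0.12 in AI animals. Without IAJ 3 the AI difference of NRAS was -0.23 (adjusted p = 0.159), while RHEB (0.72, adjusted p = 0.000278) and RRAD (-1.54, adjusted p = 6.51e-06) then passed in AI animals too. Those named here are among the 4 with the smallest adjusted p in the list and comparison.

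RAB11B was at 0.91 in IAJ 3, against 0.08, -0.09 and 0.02 in the other AI animals, and its second probe gave a difference of 0.10 in AI animals against 0.32 for the first. Without IAJ 3 the first probe gave -0.06 ± 0.09 (adjusted p = 0.802).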
